A study of Mus musculus with 19 samples.

Results

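Open chromatin was compared between 5 libraries of control mouse embryos on a retinoic acid diet and 4 libraries of control embryos without it. These are 9 of the 19 libraries of the series, and their titles put them in these groups. All 9 were made by ATAC-seq, in which a transposase cuts and tags accessible DNA. The cells were neural progenitors of the forebrain at embryonic day 14, separated with magnetic beads by Prom1, a surface protein of such cells. All 9 carry the genotype label Foxc1 WT, with the treatment label RA diet in the 5 and no diet in the 4. The labels do not give the dose, the first day or the length of the diet, or which animal ate it. Whether each library came from its own animal is not given either, and the p-values below speak only to variation among these libraries, which may be technical. The other 10 libraries (4 Foxc1 mutants and 6 mutants on the diet) were used to set the number of summits, to estimate the spread of counts per gene, and to read regions in samples that took no part in finding them.

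Retinoic acid is made from retinaldehyde by enzymes of the Aldh1a family and broken down by those of the Cyp26 family. It acts through retinoic acid receptors (Rara, Rarb, Rarg), which sit on DNA as pairs with retinoid X receptors (Rxra, Rxrb, Rxrg) at direct repeats of a short half-site. In the forebrain it comes in part from the meninges, the membranes over the brain, and is known for moving progenitors towards neurons. The title of the series names Notch and Sox2, which hold progenitors in their dividing state, as the routes in question.

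The deposited files hold peak summits with 1 score each. In each library the 29112 summits with the highest scores were kept, as many as the smallest library of the series holds, and a summit was described by its rank in that list (rank 1 is the strongest). Summits of the 9 libraries at most 200 bp apart were chained into regions, and 37381 regions with summits from at least 2 libraries were kept. Of these, 17881 (47.8%) had a matched summit in all 9 libraries and are called shared regions here. In bulk samples, fewer cells with an open site and a weaker opening in each cell cannot be told apart.

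The start of Rarb, the textbook target gene of retinoic acid receptors, is shown first because its promoter carries a receptor element and was open in all 9 libraries. The 250 bases before the start (RefSeq, GRCm38.p6, minus strand, chr14:16575477-16575726) are printed 5′ to 3′. Capitals mark a direct repeat of 2 half-sites with 5 bases between them.
Rarb: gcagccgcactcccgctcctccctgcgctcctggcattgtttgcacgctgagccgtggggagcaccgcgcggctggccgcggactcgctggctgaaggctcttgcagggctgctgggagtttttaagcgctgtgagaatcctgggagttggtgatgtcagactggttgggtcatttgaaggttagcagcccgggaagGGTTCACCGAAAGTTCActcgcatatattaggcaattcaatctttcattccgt
The repeat runs from position -53 to -37 from the start. It was found by a search of both strands for 2 half-sites in the same direction with any 5 bases between. Each half-site could be AGGTCA or GGGTCA, and AGTTCA as well as GGTTCA also counted. The plan had named only AGGTCA and its direct repeats, and the printed bases hold none of these. The other half-sites were added outside that plan. Of 32851 promoters in the table, 32 (0.0974%) hold such a repeat in their 300 bases, and a match is a description of letters, not of binding.

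The region at this start (chr14:16575382-16575625, from -149 to +94 of the start) ranked 28977, 23919, 24833 and 25034 in controls 1 to 4. In controls 1 to 5 on the diet it ranked 8257, 20500, 20611, 18069 and 15170. Every library on the diet thus ranked the Rarb start better than every control, with control 1 on the diet far ahead of the other 4. The mean rank was 25691 ± 2244 (SD, n = 4) without and 16521 ± 5125 (SD, n = 5) with the diet (two-sided exact permutation p = 0.0159). Across all shared regions the call was not made. The difference was 2.34 on the logit scale of rank (SE 0.74, 95% confidence interval 0.76 to 3.91), and limma's Benjamini-Hochberg adjusted p was 0.199. Without control 1 the difference was 1.42 (limma adjusted p = 0.207). Of the 7002 shared regions within 500 bp of a start, 129 (1.84%) ranked better in every library on the diet than in every control, and 252 (3.6%) ranked worse in every one. In mutants, the same region had a deposited summit at ranks of 12694 to 24236 in 4 of 4 libraries without the diet. It ranked 15063 to 24074 in 5 of 6 mutants on the diet and had no deposited summit in mutant 4 on the diet, so the mutant groups overlapped. Whether the effect of the diet at Rarb differs between the genotypes was not tested.

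**Figure D1:**
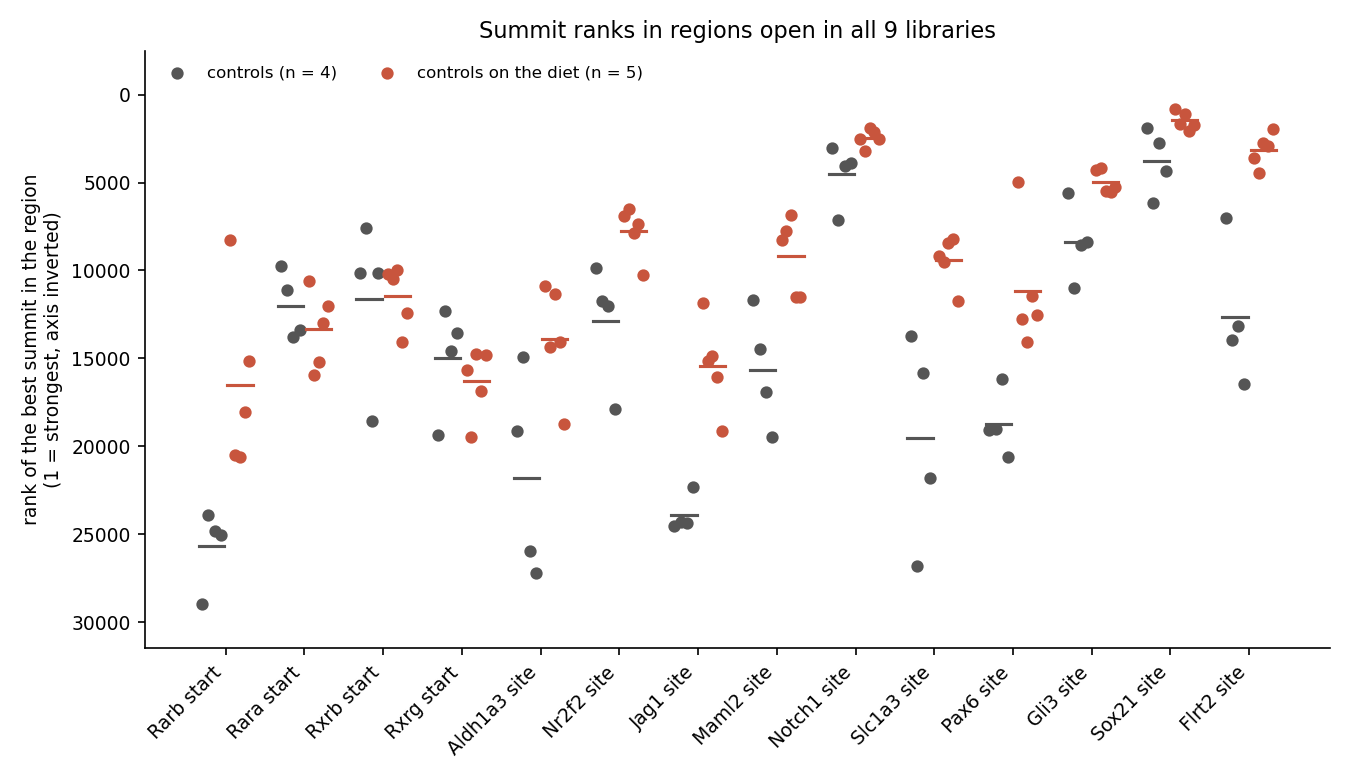
Rank of the best summit in 14 shared regions, on an inverted axis (1 is the strongest), for 4 controls (grey) and 5 controls on the diet (red), with points for libraries and bars for means. Regions at the starts of Rarb, Rara, Rxrb and Rxrg come first, and at Rara, Rxrb and Rxrg the groups overlap. The other sites are the smallest-p regions of hand-picked list genes and the 1 region called, next to Flrt2. They were thus chosen for their difference, and sites that leaned the other way, such as 1 at Rxrg and 1 at Sox9, are not drawn.

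The other receptor genes did not share the order seen at Rarb. Rara had starts at ranks of 9756 to 13805 in controls and 10593 to 15970 on the diet, which overlap (difference -0.19, SE 0.25, limma adjusted p = 0.768). At the Rxrb start the mean rank was 11602 without and 11438 with the diet, and at the Rxrg start 14959 and 16314. Rarg had a matched summit near a start in 3 of 4 controls and 4 of 5 on the diet. Rxra had none in any library, although all 9 had a weaker deposited summit there. Nrip1, a corepressor of nuclear receptors, was open at its start in all 9 libraries (mean ranks 12606 and 11066).

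Many genes that make, bind and remove retinoic acid had no matched summit at their starts, as did many genes at large. Of 22 genes of the retinoic acid list with a known start, 14 had none there in any of the 9 libraries. The same held for 8075 of 17492 protein-coding genes. Cyp26a1, Cyp26b1 and Cyp26c1 had no matched summit within 500 bp of a start in any of the 9 libraries, on the diet or off it. A weaker deposited summit stood at Cyp26a1 in 4 of 9 libraries, and none was deposited at the starts of Cyp26b1 or Cyp26c1. Crabp1, which carries retinoic acid in the cytoplasm, Aldh1a2, which makes it, and Dhrs3, which returns retinaldehyde to retinol, had no matched summit there but a weaker one in all 9. Aldh1a3, a further synthesis enzyme, had a region 0.056 kb from a gene end (chr7:66427504-66427563). It ranked 19124, 14932, 25969 and 27236 in controls and 10870, 14366, 11353, 14090 and 18727 on the diet. The order leaned to the diet libraries with some overlap (difference 1.47, SE 0.49, limma adjusted p = 0.212).

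Farther from starts, the list of 30 retinoic acid genes showed no common direction. Of 36 shared regions assigned to 17 of these genes by the nearest gene end, 13 ranked better and 23 worse on average on the diet. At an unadjusted p under 0.05, 2 ranked better and 3 worse. Over all shared regions within 100 kb of a gene end, 6956 of 15336 ranked better, with 978 better and 1002 worse at that p. Nr2f2, a nuclear receptor of ventral progenitors, had a site 15.1 kb from its end with ranks of 9851 to 17893 in controls and 6478 to 10271 on the diet. At Rxrg a site 21.3 kb away went the other way, from 3814 to 8427 in controls and from 6843 to 15720 on the diet.

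Summits were also counted per gene, as those nearer to an end of that gene than of any other within 100 kb. None of 10829 genes (0%) was called by limma at an adjusted p under 0.05, with 225 (2.08%) higher and 237 (2.19%) lower at an unadjusted p under 0.05. The last 2 shares are the background for the lists. Of 21 retinoic acid genes tested, 2 were higher and 0 lower at that p, with a median log2 difference of 0.04 against 0.00 for all genes. Rarb had 1, 2, 3 and 3 assigned summits in controls and 3 in each library on the diet (log2 difference 0.43, SE 0.20, limma adjusted p = 1). Its start lies 144.7 kb from the nearest gene end and is not among them. The groups overlapped at 3 summits.

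Notch genes encode receptors (Notch1, Notch2), ligands (Dll1, Jag1), the DNA-binding factor Rbpj with its Maml coactivators, and the targets Hes1 and Hes5. By summits per gene, 0 of 27 tested Notch genes passed an unadjusted p under 0.05, with 10 higher, 10 lower and 7 equal. Over all genes tested, 2782 (25.7%) were higher and 3387 (31.3%) lower in this sense of any difference. Notch1 had 5, 6, 6 and 6 summits in controls and 7, 6, 4, 5 and 7 on the diet. Hes5 had 4, 4, 4 and 5 against 5, 4, 4, 4 and 4. Jag1 had 3, 4, 4 and 4 against 4, 5, 4, 4 and 3. Each of these pairs overlapped, and so did Notch2 (5 to 8 against 6 to 9), Dll1 (4 to 5 against 3 to 4) and Hes1 (4 to 7 against 4 to 9). The sign of the difference turned with the number of summits kept at all 6 of these genes.

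By rank, 52 shared regions next to Notch genes split evenly, 26 better and 26 worse on the diet. At an unadjusted p under 0.05 there were 6 better and 0 worse, while over all 17881 shared regions 1321 (7.39%) were better and 1127 (6.3%) worse. The site 36.8 kb from an end of Jag1 (chr2:137153227-137153378) ranked 24522, 24333, 24393 and 22330 in controls. On the diet it ranked 11835, 15142, 14884, 16074 and 19128, better in every library (difference 1.41, SE 0.37, limma adjusted p = 0.131). In Maml2, a Notch coactivator, a site 9.89 kb from an end ranked 11689 to 19457 in controls and 6868 to 11529 on the diet, also without overlap. In Notch1, a site 2.88 kb from an end ranked 3011, 7123, 4060 and 3884 in controls and 2536, 3189, 1884, 2137 and 2507 on the diet, where control 1 and control 2 on the diet overlap. Such an order, better in every library on the diet, held for 497 (2.78%) of all shared regions, and the reverse for 536 (3%). Maml3, another coactivator, held a region that was matched in 5 of 5 on the diet and in 0 of 4 controls (chr3:52044812-52044887, 60.5 kb from an end). All 4 controls had a weaker deposited summit there, the best at rank 29768, just past the length of the matched list.

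Genes of radial glia, the stem cells of the developing cortex, had more regions that ranked better on the diet than worse. Of 92 shared regions next to 27 of these genes, 57 ranked better and 35 worse, and 15 were better against 2 worse at an unadjusted p under 0.05. Over all shared regions within 100 kb of a gene end, the counts at that p were near equal (978 and 1002). Genes next to these sites included Fgfr2, Gli3, Hmga2, Hopx, Pax6, Slc1a3, Sox1, Sox3 and Sox21. Several sites share a gene and the list was chosen with earlier results known, so the counts are a description.

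Slc1a3, a glutamate transporter of radial glia, had a site 6.41 kb from an end (chr15:8717189-8717246). It ranked 13709, 26829, 15845 and 21783 in controls and 9170, 9521, 8435, 8230 and 11732 on the diet. Pax6, a transcription factor of cortical radial glia, had a site 56.6 kb from an end (chr2:105612167-105612435). It ranked 19075, 19039, 16186 and 20600 in controls and 4955, 12748, 14049, 11449 and 12508 on the diet. Both sites, like 1 at Gli3 (a Hedgehog transcription factor), ranked better in every library on the diet than in every control. The limma adjusted p was 0.126 at Slc1a3, 0.154 at Pax6 and 0.187 at Gli3, so none was called. Pax6 also held a site that leaned the other way (difference -0.89), and so did Sox9 (difference -0.96).

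Sox2, which keeps progenitors in the stem state, had 8, 6, 5 and 7 summits in controls and 10, 8, 8, 10 and 10 on the diet, touching at 8 (log2 difference 0.48, SE 0.17, limma adjusted p = 0.797). Part of the extra summits lay downstream of the gene. A site 1.58 kb past its end (chr3:34654026-34654061) and one 11.9 kb past it (chr3:34664323-34664440) were each matched in 1 of 4 controls and 5 of 5 on the diet. One more, 15.6 kb away (chr3:34668034-34668086), was matched in 0 of 4 and 4 of 5. By Fisher's exact test, each of these downstream sites had an unadjusted p under 0.05. That held for 589 (1.58%) of all 37381 regions towards the diet and 605 (1.62%) towards the controls. Whether the libraries without a match held a weaker summit at these sites is not reported here. Upstream, a site at chr3:34646343-34646355 was matched in 2 of 4 and 5 of 5, and one at chr3:34561873-34561881 in 4 of 4 controls and 2 of 5 on the diet. At the Sox2 start itself the ranks went the other way on average, 9573 ± 1979 (SD, n = 4) without and 12504 ± 5510 (SD, n = 5) with the diet, with overlap (limma adjusted p = 0.622). When all deposited summits were counted the log2 difference of Sox2 was -0.27, and with the best 14556 summits per library it was -0.45, so its sign rests on the list length. Fgfr2, a growth factor receptor of progenitors, had 5, 6, 6 and 5 summits in controls and 9, 7, 7, 7 and 7 on the diet (log2 difference 0.40, SE 0.12, limma adjusted p = 0.795). Every library on the diet exceeded every control at Fgfr2, as at 26 (0.24%) of the 10829 genes, while 33 (0.305%) had the reverse order.

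Prom1, the protein used for the separation, had 1 summit in every library, but at different places. In 2 of 4 controls and 5 of 5 on the diet it lay at the start (chr5:44101689-44101747). In controls 2 and 4 it lay farther inside the gene, at chr5:44100709-44100756.

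Progenitor and neuron genes further along the lineage leaned in different directions. Neurod4, of intermediate progenitors, had 3, 3, 4 and 4 summits in controls and 1, 3, 3, 2 and 2 on the diet. Tbr1, of deep-layer neurons, had 1, 2, 3 and 3 against 0, 2, 1, 1 and 0, and a site inside the gene (chr2:61807246-61807293) was matched in 3 of 4 controls and 0 of 5 on the diet. Dcx, a microtubule protein of young neurons, had 1, 1, 3 and 2 against 4, 3, 2, 3 and 4. The log2 differences were -0.62 (SE 0.22), -1.28 (SE 0.45) and 0.78 (SE 0.24), and limma's adjusted p was 0.807, 0.807 and 0.795. Olig1, of ventral progenitors, had 2, 2, 3 and 3 summits against 5, 4, 5, 5 and 5, with no overlap (log2 difference 0.84, SE 0.23, limma adjusted p = 0.61). Such an order, more summits in every library on the diet, held for 26 (0.24%) of the 10829 genes, and the reverse for 33 (0.305%). A pair of Olig1 sites were matched mainly on the diet, at chr16:91292837-91292994 in 0 of 4 and 4 of 5, and at chr16:91301479-91301661 in 1 of 4 and 5 of 5. These and the Tbr1 site had an unadjusted Fisher p under 0.05, as had 1.58% of all regions towards the diet and 1.62% towards the controls. Weaker summits in the libraries without a match are not reported for these sites. For Tbr1 and Olig1 the sign was opposite when all deposited summits were counted (0.058 and -0.091).

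Among starts of cell cycle genes, worse ranks on the diet were slightly more common than better ones, as they were among all starts. Of all 7002 shared regions at starts, 3085 ranked better and 3917 worse. Of 17 cell cycle starts in shared regions, 7 ranked better and 10 worse, and 3 were worse against 0 better at an unadjusted p under 0.05. These were Top2a, which untangles DNA, the mitotic kinase Plk1 and the mitotic cyclin Ccnb1. Over all 7002 shared regions at starts, 321 (4.58%) were better and 458 (6.54%) worse at that p. Ccnb1 ranked 1844, 2021, 1898 and 2316 in controls and 3523, 3799, 2686, 2492 and 3076 on the diet, worse in every library (difference -0.47, SE 0.18, limma adjusted p = 0.262). Mki67, a general marker of dividing cells, leaned the other way at its start (mean ranks 9236 and 7339, difference 0.30), and Pcna was among the strongest starts in both groups (mean ranks 356 and 635).

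Hedgehog genes, which pattern the ventral forebrain, had 6 regions better and 1 worse at an unadjusted p under 0.05 among 35 shared regions, although 22 of the 35 ranked worse on average. Over all shared regions within 100 kb of a gene end, 978 were better and 1002 worse of 15336 at that p, and 7.39% and 6.3% over all shared regions. The 6 were next to Boc, Cdon, Gas1, Ptch1 and Sufu, which bind, receive or restrain the signal. At Sufu the 2 sites went opposite ways. The start ranked 2551, 2620, 2296 and 3591 in controls and 880, 2114, 1635, 2265 and 1719 on the diet. A site 36.1 kb from an end ranked 13064 to 17227 in controls and 19871 to 25576 on the diet, with no overlap at either site.

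Markers of other cells that a bead separation could carry over were summed per list, which does not measure how many such cells there were: 15 housekeeping genes, active in all cells, summed to 14 to 17 in controls and 15 to 18 on the diet. Summed summits over the list were 14 to 18 in controls and 14 to 18 on the diet for 15 endothelial genes, and 15 to 18 in both groups for 15 meningeal fibroblast genes. They were 12 to 14 and 11 to 16 for 14 microglia and macrophage genes, 4 to 6 and 4 to 5 for 12 erythroid genes, and 10 to 12 and 8 to 9 for 10 mural genes. The mural sums did not overlap between the groups, with only 3 of the 10 genes averaging at least 1 summit, and their part in the results was not tested. The 29 radial glia genes summed to 128 to 146 and 136 to 146. The sums of 14 gliogenesis genes were 56 to 61 in controls and 50 to 55 on the diet, also without overlap. No other list of the 18 was apart, and projection neuron, intermediate progenitor, ganglionic eminence and cortical hem sums overlapped. Over all 21887 protein-coding genes the sums were 23787 to 24736 in controls and 23732 to 24177 on the diet. Foxc1, which the controls carry as wild type, had 1, 2, 1 and 1 summits and 1 in each library on the diet. Near its paralogue Foxc2 (chr8:121113473-121113474, 2.70 kb from the gene) a region was matched in 4 of 4 controls and 0 of 5 on the diet, with a weaker deposited summit in all 5.

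Across all shared regions, 1 of 17881 (0.00559%) was called higher in rank on the diet and 0 (0%) lower. It lies 572 kb from the nearest gene end, that of Flrt2, a guidance and adhesion protein of neurons (chr12:95119711-95119786). Its ranks were 7024, 13955, 13174 and 16479 in controls and 3624, 4467, 2763, 2896 and 1925 on the diet. All 5 libraries on the diet ranked it better than all 4 controls (difference 1.86, SE 0.26, limma adjusted p = 0.0451). The call was lost under 14 of 18 alternative settings, and leaving out control 1 instead gave 38 regions higher and 1 lower. The next regions by p, none of them called, lay in Anks1b, Ptprg, Tcf12, Zfp423, Ntm and Farsb and next to Rundc3b, with differences of 0.96 to 2.31 (limma adjusted p = 0.0698 for each). In Ntm, a neuronal adhesion protein, the site ranked 13077, 21259, 25129 and 26719 in controls and 7375, 6083, 6403, 8855 and 9517 on the diet. In the other direction stood Klhl29 (difference -1.37, limma adjusted p = 0.0698), Kdm5a, Zbed5, Rab10, Mgat5b, Cdrt4, Adcyap1r1 and Zfp101. Inside Klhl29 the site ranked 5803 to 10242 in controls and 16336 to 17749 on the diet.

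The share of regions with a rank difference varied with distance from genes. Beyond 100 kb from any gene end, 343 of 2545 shared regions (13.5%) ranked better on the diet at an unadjusted p under 0.05 and 125 (4.91%) worse. Within 1 kb the order was the reverse, with 333 of 7517 (4.43%) better and 484 (6.44%) worse. Regions are not replicates, and the same contrast over libraries was not significant. The median rank of shared regions beyond 100 kb was 12044 ± 1171 (SD, n = 4) in controls and 11469 ± 739 (SD, n = 5) on the diet (two-sided exact permutation p = 0.389). This difference of -575 ranks was -23.4 without control 2 (exact permutation p = 0.946). Matched summits beyond 100 kb made up 16.8% ± 1.3 (SD, n = 4) without and 17.7% ± 0.6 (SD, n = 5) with the diet (exact permutation p = 0.206, adjusted over 4 distance classes 0.275). That difference of 0.92 percentage points was 0.34 without control 2 (exact permutation p = 0.518) and 1.42 without control 3 (exact permutation p = 0.0357). Within 1 kb the shares were 32.2% ± 1.6 and 32.5% ± 0.5 (p = 0.675 by the exact permutation test), and at 1 to 10 kb 16.7% ± 0.5 and 16.0% ± 0.3 (p = 0.0397, adjusted 0.159, by the same exact test).

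**Figure D2:**
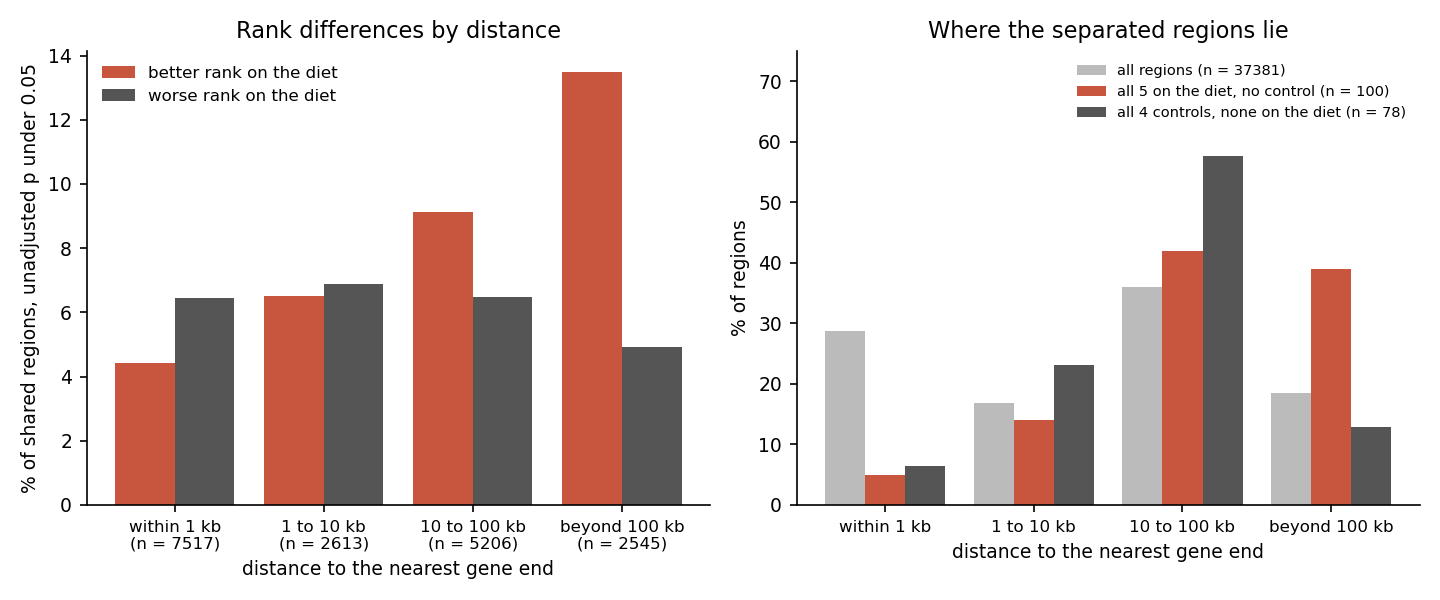
Left, percent of shared regions with an unadjusted limma p under 0.05, by distance to the nearest gene end, in each direction. Right, percent of regions in each distance class, for all regions and for the regions separated by diet. Beyond 100 kb, better ranks on the diet outnumber worse ones (13.5% against 4.91%), and the regions of all 5 diet libraries have their largest excess over all regions (39% against 18.4%).

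Presence of a matched summit was compared region by region with Fisher's exact test. No region of 37381 (0%) passed an adjusted p under 0.05, and the smallest p that 5 against 4 libraries allow is 0.00794. At an unadjusted p under 0.05, 589 regions (1.58%) were present more often on the diet and 605 (1.62%) less often. A summit in all 5 on the diet and in no control was found at 100 regions (0.268%), and in all 4 controls and none on the diet at 78 (0.209%). These 2 sets differed in their distance to genes, which is a description, since regions are not replicates and the difference was not tested over libraries. Of the 100, 39% lay beyond 100 kb and the median distance to a gene end was 63.4 kb. Of the 78, 12.8% lay beyond 100 kb with a median of 22.0 kb. Regions not in all 9 libraries, among which separated regions can occur, had 22.2% and 24.3 kb, and all regions had 18.4% and 14.1 kb. About equal shares lay inside gene bodies, 55% of the 100, 53.8% of the 78 and 53.2% of all. List genes next to the 100 were Foxp2 and Maml3, and those next to the 78 were Nfia, Foxc2 and Neurod4.

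Most libraries that lacked a separated region held a weaker summit there. Of 400 pairs of a diet-set region and a control, 358 (89.5%) had a lower-ranked deposited summit, as did 320 of 390 pairs (82.1%) in the other set. With all deposited summits, 36 regions were separated towards the diet and 382 towards the controls, and with the best 14556 summits 54 and 39. Controls had more deposited summits, 98555 ± 22068 (SD, n = 4) against 77804 ± 13693 (SD, n = 5), a difference of -20751 (two-sided exact permutation p = 0.159). The score of the last matched summit, read here as a -log10 q value, was 37.2 ± 14.7 and 22.5 ± 10.1 (exact permutation p = 0.119). The part of this difference in the results above was not tested.

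At starts of genes, all 5 diet libraries and no control had a matched summit within 500 bp for 5 genes (0.0185% of 27025). They were Car12 (a carbonic anhydrase), Chga (a protein of secretory granules), Fgf22 (a fibroblast growth factor), Pigl (an enzyme of membrane anchor synthesis) and Rbm24 (an RNA-binding protein). The reverse held for Ednra (an endothelin receptor) and for LOC108167319, 2 genes (0.0074%). A start was open in all 9 libraries for 8383 genes and in none for 15925. Pigl had a weaker deposited summit in 1 of 4 controls, and the other 4 genes had one in 4 of 4.

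The Fgf22 promoter is shown because its diet-only region lies just upstream of the start, and that of Pfkfb3, a regulator of glycolysis, because a control-only region crosses a start inside it. Both are the 250 bases before a start in RefSeq (GRCm38.p6), 5′ to 3′, with the part inside the region in capitals. Fgf22 is on the plus strand (chr10:79754859-79755108, region from -20 to -2) and Pfkfb3 on the minus strand (chr2:11502091-11502340, region from -61 to +87). The control-only region also crosses a start of Gm52500 on the plus strand (from -7 to +141), which is not printed.
Fgf22: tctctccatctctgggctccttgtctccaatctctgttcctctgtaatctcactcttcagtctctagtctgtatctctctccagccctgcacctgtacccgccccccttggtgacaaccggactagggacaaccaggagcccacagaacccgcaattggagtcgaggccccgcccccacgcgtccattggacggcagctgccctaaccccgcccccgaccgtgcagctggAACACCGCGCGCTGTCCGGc
Pfkfb3: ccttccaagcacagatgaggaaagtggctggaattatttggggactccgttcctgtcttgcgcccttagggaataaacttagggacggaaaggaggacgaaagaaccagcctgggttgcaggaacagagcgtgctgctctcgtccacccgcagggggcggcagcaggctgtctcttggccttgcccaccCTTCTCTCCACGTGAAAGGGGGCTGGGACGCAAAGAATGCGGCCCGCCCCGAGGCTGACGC
Neither held any of the 4 half-sites used for Rarb, which 43.7% of all promoters hold on either strand. The Fgf22 region ranked 15497, 17744, 18650, 27823 and 25109 on the diet.

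At Pfkfb3 the summit itself stood in another place. Each of the 9 libraries had 1 deposited summit within 400 bp of the span of the 2 regions. In controls it lay between 11502003 and 11502151 on chromosome 2, at the start printed above, with ranks of 5439 to 7450. On the diet it lay between 11501416 and 11501557, with ranks of 5702 to 7816, so the ranks overlapped and the positions did not. At 1110051M20Rik, also on chromosome 2, the summit lay between 91430629 and 91430650 in controls and between 91430333 and 91430376 on the diet. At Pfkfb3, 4 of 4 mutants without the diet had the summit between 11501397 and 11501511, where the controls on the diet had it, and mutants on the diet ranged from 11501403 to 11502151.

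**Figure D3:**
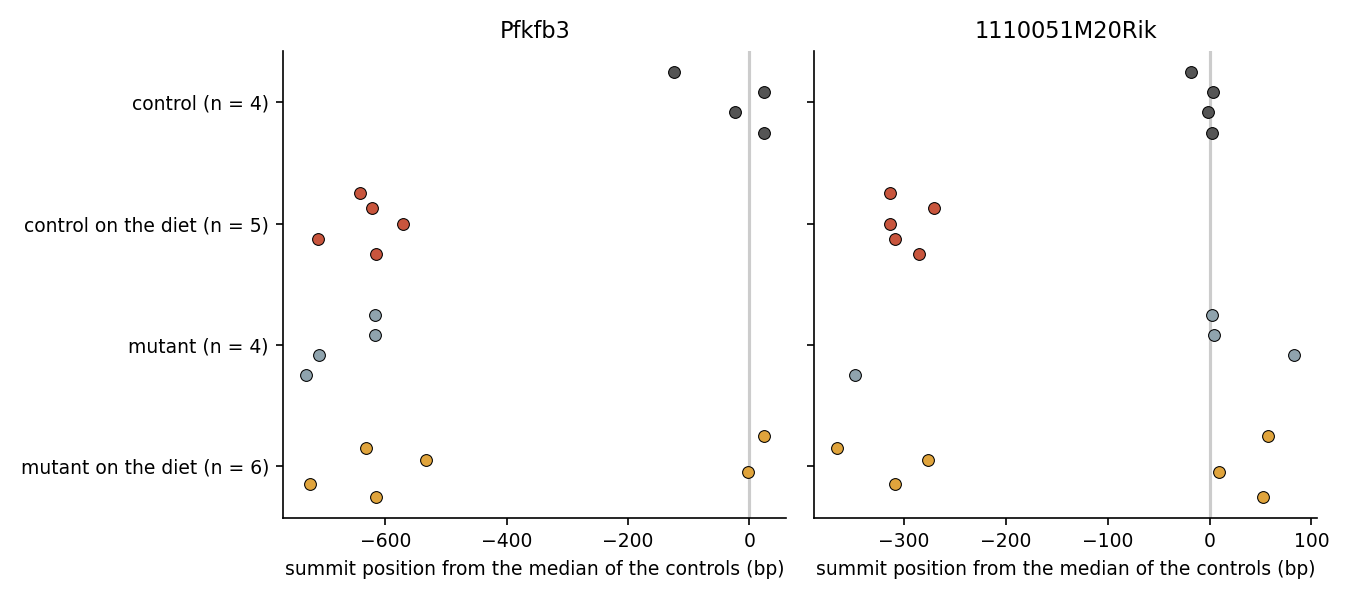
Position of the strongest deposited summit at Pfkfb3 and 1110051M20Rik in each of the 19 libraries, in bp from the median of the controls, 1 point per library. Controls and controls on the diet do not overlap at either gene, while mutants off and on the diet lie at both positions, except that all 4 mutants without the diet lie with the diet controls at Pfkfb3.

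The 178 separated regions were then read in the 10 mutant libraries, which took no part in finding them. The 100 regions of the diet libraries had a matched summit in 69.2% ± 22.4 (SD, n = 6) of cases in mutants on the diet and 42.0% ± 25.4 (SD, n = 4) in mutants without it (two-sided exact permutation p = 0.119, also after adjustment over the 2 sets). The 78 regions of the controls had one in 18.8% ± 9.2 (SD, n = 6) and 44.9% ± 33.7 (SD, n = 4) (exact permutation p = 0.0952, adjusted 0.119). Both means lay in the direction seen in controls, and neither difference passed the exact test. The mutants without the diet fell apart by library. Mutants 1 and 2 had the diet regions at 19% and 21% and the control regions at 67.9% and 79.5%. Mutants 3 and 4 had them at 64% and 64%, and at 14.1% and 17.9%, inside the range of the mutants on the diet. Mutant 6 on the diet, at 29% and 33.3%, stood nearest to mutants 1 and 2 among the 6. Mutant 1 carries a wild-type genotype label against its title, and without it the differences were 19.5 percentage points (exact permutation p = 0.262) and -18.4 (exact permutation p = 0.214). Single libraries decided the calls in the other direction as well. Without mutant 6 on the diet the first difference was 35.2 (exact permutation p = 0.0317). The second was -36.3 without mutant 3 (exact permutation p = 0.0357) and -35.0 without mutant 4 (exact permutation p = 0.0476).

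The site near Edn2, an endothelin gene, showed the same split in single libraries. Its summit was deposited in 5 of 5 controls on the diet, between 120190123 and 120190131 on chromosome 4 with ranks of 15687 to 17600, and in 0 of 4 controls at any rank. It was present in 6 of 6 mutants on the diet and in 2 of 4 without it, mutants 3 and 4. The Edn2 site is 1 of 6 diet-set regions without a deposited summit in any control, and the others were less clear in mutants. Matched summits in mutants without and with the diet numbered 2 and 5 at B3glct, 2 and 4 at Ripor2, and 1 and 3 at Rab28. They numbered 4 and 4 at Pfkfb3, and 1 and 3 at 1110051M20Rik. The labels name no batch or date, so a feature shared by mutants 3 and 4 and the diet libraries was not tested.

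**Figure D4:**
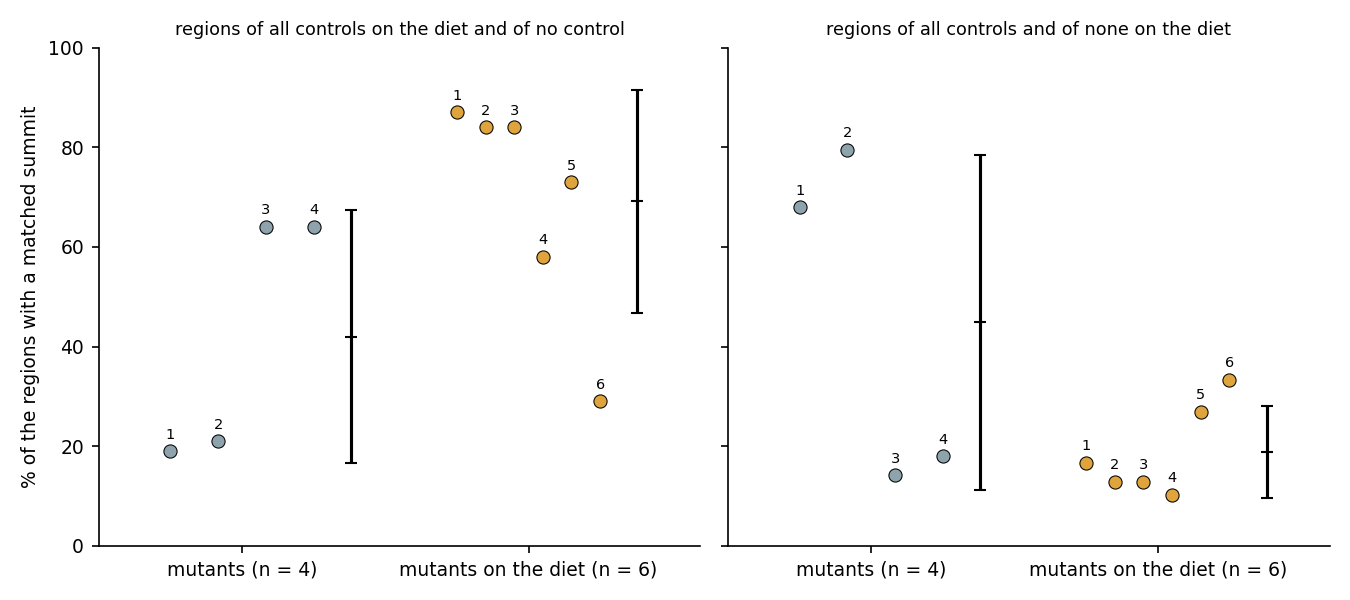
Percent of the separated regions with a matched summit in each mutant library (points, numbered as in the titles), for the regions of all 5 controls on the diet (left) and of all 4 controls (right). Bars are the mean and SD; mutants 3 and 4 lie with the mutants on the diet and apart from mutants 1 and 2 in both panels.

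Over all regions, libraries of 1 diet group were on average more alike than libraries of different groups, but not in every pair. The Jaccard index, the number of regions that 2 libraries share over the number either has, averaged 0.768 for the 6 pairs of controls (0.721 to 0.846) and 0.752 for the 10 pairs on the diet (0.713 to 0.803). It averaged 0.730 for the 20 pairs between groups (0.685 to 0.770). Controls 1 and 2 were closest to each other (0.785). Control 1 was nearer to controls 3 and 4 on the diet (0.768 and 0.770) than to controls 3 and 4 (0.749 and 0.761). Control 2 was nearer to control 2 on the diet (0.758) than to controls 3 and 4 (0.721 and 0.745). The mean within groups exceeded that between them by 0.0272 (one-sided exact permutation p = 0.00794, the smallest that 5 against 4 libraries can give). Controls 3 and 4 formed the most similar pair, and without control 3 the difference was 0.0172 (exact permutation p = 0.0536) and without control 4 it was 0.0128 (exact permutation p = 0.0893). With all deposited summits it was 0.0191 (exact permutation p = 0.159).

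**Figure D5:**
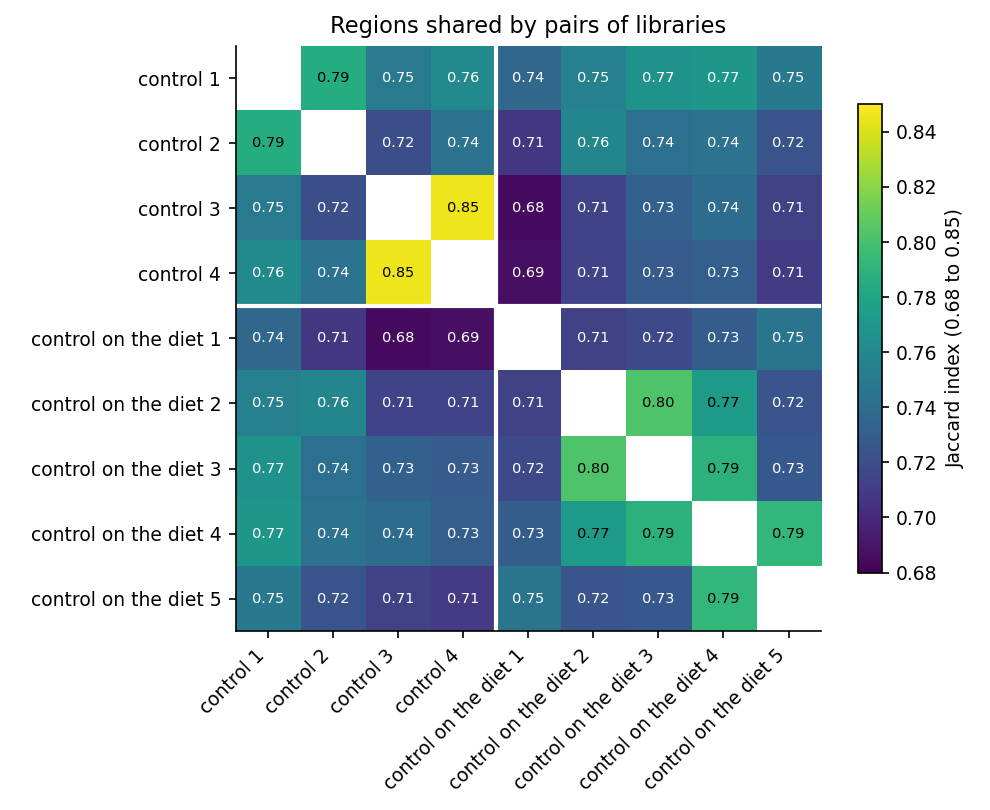
Jaccard index of matched regions for each pair of the 9 libraries, with a white line between the 4 controls and the 5 controls on the diet, on a colour scale from 0.68 to 0.85. The brightest cell is the pair of controls 3 and 4 (0.85), and the lowest values (0.68 and 0.69) join these 2 with control 1 on the diet.

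The 12 genes with the smallest p by summits per gene differed by about 1 or 2 summits. Fewer on the diet were Rad51c, of DNA repair (2 in each control and 1 in each library on the diet, log2 difference -0.74, SE 0.11, limma adjusted p = 0.0558), and Rabif, Senp1, Prpf40b, Rnf216 and Agfg2. More on the diet were Mos, Asb13, Zfp62, Xpo4, Fnbp1l and Nkx1-1, with limma adjusted p of 0.247 to 0.523. Fnbp1l, a protein of membrane bending, had 3, 3, 2 and 2 summits in controls and 4 in each library on the diet. Nkx1-1, a homeobox factor, had 1 in each control and 2, 1, 3, 3 and 2 on the diet. Of the tested genes, 3262 had no spread within any group, and the spread for such genes rests on what limma borrows from the others.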

How the data were processed

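The authors deposited, for each library, a list of 1-bp peak summits with 1 score each, read here as MACS2's -log10 q value because the smallest is near 1.30, the -log10 of 0.05. Tools in the submitters' processing notes are MACS2, BWA, Signac and DiffBind, and the builds are mm10 and GRCm38. Their versions and settings are not given in the sources used here. Read counts were not used here, so depth is unknown and no counting interval was computed; the number of deposited summits (59106 to 122591 in the 9 libraries, 783239 in all) stands in for it. Scores were used only to rank summits within a library. Keeping the best 29112 equalises list length, not sensitivity.

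Groups came from the titles, which number the controls 1 to 4 while names inside the deposited files differ, so the numbers were not taken as pairs. Summits went to the nearest end of a protein-coding gene (RefSeq table of GRCm38.p6, 21887 genes) within 100 kb; starts and sequences came from its promoter table. Counts per gene were fitted as log2(summits + 0.5) by limma 3.58.1 in R 4.3.3, with a mean trend and the robust option, over all 19 libraries. Genes averaging under 1 summit were left out. A fold on this scale understates the change of genes with few summits. Ranks in shared regions were fitted as the logit of the rank fraction, over the 9 libraries. Adjusted p-values are Benjamini-Hochberg values. Single values were compared by exact permutation over libraries. Scripts were tested on simulated data. The plan for named genes held the retinoic acid, Notch and radial glia genes with Foxc1, Prom1, Eomes, Neurog2 and Tbr1. It also held the 6 genes with the smallest p in each direction, and separated regions next to list genes or of the highest ranks. The 8 regions with the smallest p in each direction by rank completed it. Genes of other lists, such as Dcx, Olig1, Ccnb1, Top2a, Plk1, Mki67, Pcna, Sufu and Gas1, were added outside that plan. Eomes and Neurog2 are given no values here. The comparison, the members and the 18 gene lists were chosen with earlier results of these data known. Alternatives were other list lengths, chaining distances, filters, models and libraries left out. Results for some list genes are not reported here.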

Additional observations from a re-analysis of the deposited data

Results flagged for a closer look

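Of 52 groups of values checked, 1 held a library far from the others, while chance gives about 1 in 20. In the region next to Mgat5b, control 2 on the diet ranked 20450, and the other 4 libraries on the diet ranked 24736 to 25797. All 5 still ranked it worse than the 4 controls (11537 to 14907).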

How the results depend on the processing

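With all deposited summits, 304 regions were present more often and 3852 less often on the diet at an unadjusted p under 0.05, 36 and 382 were separated, the difference in the share beyond 100 kb was -0.91 percentage points, and the similarity difference was 0.019 (exact permutation p = 0.159). With the best 14556 summits these counts were 288 and 272, and 54 and 39, and the share within 1 kb differed by -0.44 points. With the best 59106 summits they were 977 and 1421, and 130 regions were separated towards the diet and 208 towards the controls. At that length 31 regions were called higher and 2 lower in rank.

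Genes called with more and with fewer summits numbered 1 and 1 with the best 14556 summits, and 13 and 18 with the 9 libraries alone, where genes without spread pass. Fewer summits were called for 2 genes with all deposited summits, 2 without the robust step, 3 without a filter on low values and 1 without genes alike in all libraries. Regions called higher in rank numbered 0 with the best 14556 summits, with chaining at 500 bp, without the robust step, with the number of deposited summits as a covariate, on the untransformed rank fraction and with regions chained over all 19 libraries. Some of these alternatives were chosen after seeing the data.

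Same-numbered controls off and on the diet correlated at 0.044, 0.164, 0.105 and 0.009 for ranks, not all over 0.1, so the numbers were not read as pairs; 3 of 4 controls correlated best with their own number. With the replicate block, 3 regions were called higher in rank, against 0 for the same 8 libraries without the block. For genes, the block called 17 with more and 25 with fewer summits over the same 8 libraries. Over all 19 libraries it called 0 and 0, with the spread estimated as in the reported values.

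Leaving out 1 library at a time gave 118 to 239 regions present more often at an unadjusted p under 0.05, and as many separated towards the diet, since with 1 library fewer only separated regions reach that p. Towards the controls both counts were 112 to 201. The share within 1 kb differed by -0.18 (without control 3) to 1.10 points, and the similarity difference was 0.013 to 0.034. The mutant differences were 19.5 to 35.2 and -36.3 to -14.5 points. Calls were 0 to 1 genes with more, 0 to 1 with fewer, 0 to 38 regions higher and 0 to 1 lower.

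For 17 named regions, 303 alternatives turned no sign in rank, while 17 gained and 14 lost a call. All but Rarb were chosen for the smallest p in this same fit, and in all 17 the groups did not overlap. Their signs could thus hardly turn when a library was left out, and the count does not compare with that for genes. For 24 named genes, 40 of 508 alternatives turned the sign of the difference in summits. With all deposited summits the log2 difference was -0.049 for Mos, -0.16 for Asb13, -0.23 for Xpo4, -0.18 for Fnbp1l, -0.25 for Nkx1-1, -0.27 for Sox2, -0.29 for Hes1, 0.072 for Hes5, -0.052 for Jag1, -0.25 for Notch2, -0.033 for Rarb, -0.16 for Pax6, -0.091 for Olig1 and 0.058 for Tbr1. With the best 59106 it was -0.049 for Mos, -0.036 for Asb13, -0.30 for Xpo4, 0.26 for Rnf216, -0.13 for Hes1, 0.072 for Hes5, 0.041 for Notch1, 0.12 for Dll1 and 0.064 for Tbr1. With the best 14556 it was -0.45 for Sox2, 0.14 for Hes5, 0.29 for Notch1, -0.87 for Jag1 and 0.60 for Dll1. With the number of deposited summits as a covariate it was 0.045 for Hes5, 0.011 for Notch1 and -0.0090 for Jag1, and with summits in the gene body and 5 kb beside it 0.039 for Notch1. Leaving out 1 library gave -0.072 to 0.058 for Hes5, -0.081 to 0.10 for Notch1, -0.015 to 0.16 for Jag1 and -0.091 to 0.073 for Rara. The cause was not tested. Depth is unknown, and weak summits limit every presence call.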

Other observations

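The lists not yet described by rank showed these counts of shared regions with a better and a worse mean rank on the diet. Over all shared regions within 100 kb of a gene end, 6956 of 15336 were better, with 978 better and 1002 worse at an unadjusted p under 0.05 (7.39% and 6.3% over all shared regions). For ganglionic eminence and interneuron genes they were 17 and 6, with 4 against 0 at an unadjusted p under 0.05. For Wnt and BMP genes they were 34 and 29, with 7 against 1. For intermediate progenitor genes they were 10 and 15, with 0 against 3, and for gliogenesis genes 12 and 20, with 3 against 4. Cortical hem and choroid plexus genes had 8 and 15, with 2 against 1, and projection neuron genes 20 and 22, with 1 against 1. Housekeeping genes had 3 and 6, with 0 at that p in either direction by limma. By summits per gene, 1 of 12 tested gliogenesis genes was higher and 10 were lower, where 25.7% of all genes were higher and 31.3% lower, and 0 passed an unadjusted p under 0.05 in limma. Hox genes, which mark the hindbrain and spinal cord, summed to 2 to 4 summits over 15 genes in both groups.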
